A study of Mus musculus with 12 samples.

Results

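The 8 troponin genes of the mouse (Tnnt1, Tnnt2, Tnnt3, Tnni1, Tnni2, Tnni3, Tnnc1 and Tnnc2) were followed in neural progenitor cells as a readout of striated muscle genes, to see whether these genes moved where smooth muscle genes did. Every probe whose transcript accession belongs to one of them was taken, which gave 10 of the 55681 probes on the array: 2 each for Tnnt1 and Tnnt3 and 1 for each other gene. All 8 genes had a probe, and all 10 probes entered every test.

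The cells were neural progenitor cells (NPCs) derived in vitro, and all were kept in medium with EGF and bFGF. The study made one NPC line from embryonic stem cells. It made another from pluripotent cells reprogrammed from that line, which carry inducible reprogramming genes. Its methods name either line for molecular analyses, and the array titles say only NPC. In the overexpression experiment, a retrovirus carried EGFP (the control, a fluorescent protein), Mkl1 or Srf. In the knockdown experiment, a retrovirus expressed a short hairpin RNA, with shEGFP as the control and a pair of different hairpins, shActb_1 and shActb_2, against Actb, the gene of β-actin. Each of these 6 groups had 2 one-colour Agilent arrays. The study calls its array duplicates for the Actb knockdown technical, and the labels do not tie duplicates to separate cultures, so the p-values below measure the spread between arrays. The labels give neither a strain nor the time after infection. These are pooled cultures, in which more expressing cells and more RNA per cell cannot be told apart.

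Troponin is the calcium switch of striated muscle. It sits on tropomyosin along the actin filament as a complex of a T subunit, which binds tropomyosin, an I subunit, which holds back the interaction of actin with myosin, and a C subunit, which binds calcium and releases the block. The T and I genes come in slow skeletal (Tnnt1, Tnni1), cardiac (Tnnt2, Tnni3) and fast skeletal (Tnnt3, Tnni2) forms, while Tnnc1 serves slow and cardiac muscle and Tnnc2 fast muscle. Smooth muscle contracts without troponin and relies on phosphorylation of the myosin light chain, with calponin and caldesmon on its thin filament. Srf, the serum response factor, regulates many muscle and cytoskeletal genes, which it binds at a sequence called the CArG box. Mkl1 is a cofactor of Srf that monomeric actin keeps inactive.

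All values below are levels on the log2 scale, the processed signal of a probe minus the 75th percentile of its array, or differences between such levels. Between 59.3% and 72.5% of probes per array were well above background, arrays of a group correlated at r = 0.993 to 0.998, and 0.499% to 2.74% of probes were more than 2-fold apart on the duplicates of a group, most in EGFP. Against shEGFP, the probe for Actb was at -0.53 with shActb_1 and -0.65 with shActb_2 (limma, adjusted p = 0.00128 and 0.000196). The Mkl1 gene, listed as Mrtfa, read 0.20 and 0.17 higher at its 2 probes on the arrays labelled Mkl1, which did not pass the test (adjusted p = 0.12 and 0.312). The 2 Srf probes fell by 2.46 and fell by 1.40 on the arrays labelled Srf, against the label. Whether any of these probes lies within the part of the transcript that the virus carried is not given in the sources used here, so each direction drawn from the arrays labelled Srf or Mkl1 rests on the label. Of 10 neural progenitor markers, 7 to 9 were well above background on both arrays of a group, and Olig2 was not in any group. Over 2-fold and past the test among them were Nes (nestin), 1.16 higher with Mkl1, Sox2, at -1.05 with Srf and -1.01 with shActb_1, and Fabp7, at -1.27 with shActb_1 (limma, adjusted p from 0.00186 to 0.00725).

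One troponin, Tnnt3, rose in all 4 comparisons with a control. Tnnc1 and Tnni2 rose by over 2-fold on the arrays labelled Srf alone among these 4 comparisons. The other 5 genes changed by less than 2-fold in each of them. Counted by probe, 4 of 10 were changed to higher on the arrays labelled Srf, 2 of 10 on those labelled Mkl1, and 2 of 10 with each Actb hairpin. Changed here means a difference of over 2-fold with a limma p, adjusted by the Benjamini-Hochberg method over all probes tested, of under 0.05. The share of all probes called higher was 3.29% for Srf, 1.29% for Mkl1, 0.486% for shActb_1 and 1.73% for shActb_2. No troponin probe was changed to lower in these 4 comparisons. Both EGFP arrays lay in row 2 of their slide and the Mkl1 and Srf arrays in row 1, so row and treatment cannot be told apart in these comparisons, and the difference between Mkl1 and Srf is within 1 row.

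**Figure D1:**
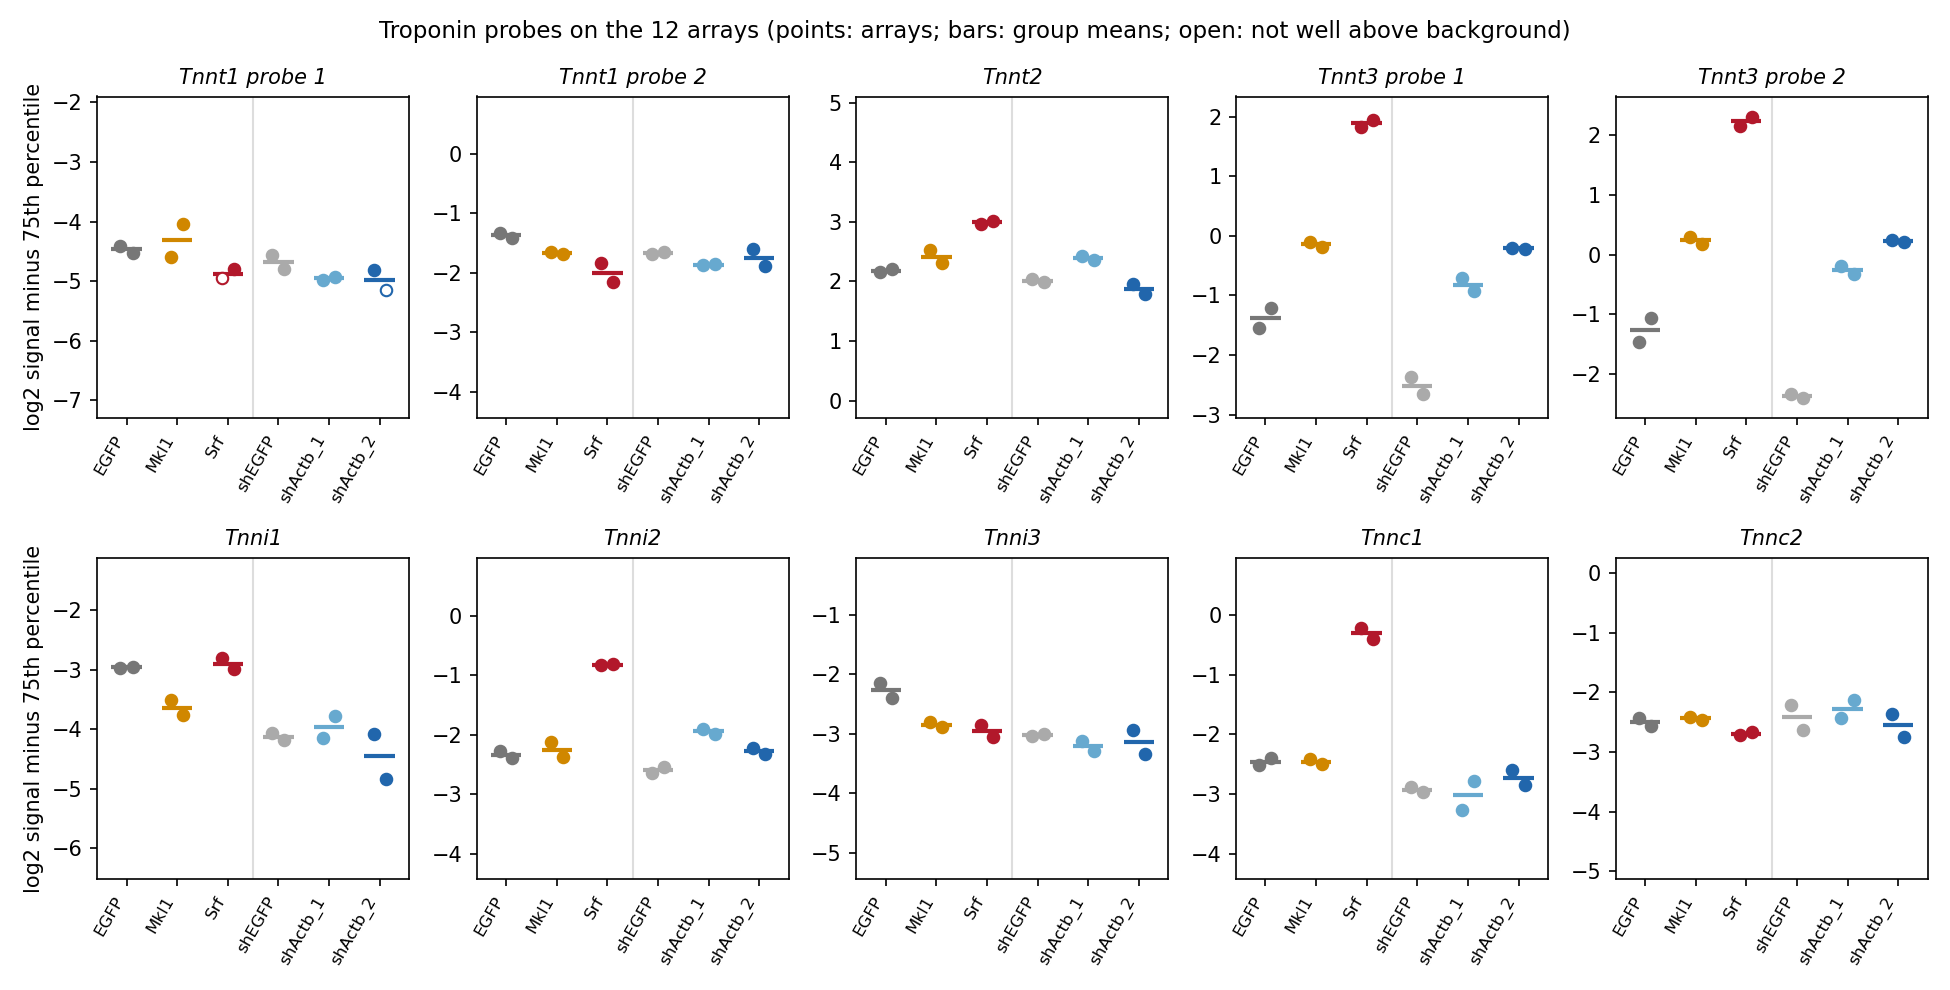
Log2 level (processed signal minus the 75th percentile of the array) of each of the 10 troponin probes, 1 panel a probe, on the 12 arrays in 6 groups; points are arrays, bars are group means, open points are arrays on which the probe was not well above background, and every panel spans the same number of log2 units around its own centre. Both Tnnt3 probes stand above the control arrays in every other group, while Tnnc1 and Tnni2 stand apart on the arrays labelled Srf.

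Tnnt3 encodes the fast skeletal T subunit and has 2 probes, one listed under NM_011620 (probe 1) and the other under NM_001163664 (probe 2). At probe 1, the EGFP arrays read -1.54 and -1.21, the arrays labelled Mkl1 read -0.10 and -0.19, and the arrays labelled Srf read 1.84 and 1.94. In the knockdown experiment the shEGFP arrays read -2.38 and -2.66, those of shActb_1 -0.70 and -0.93, and those of shActb_2 -0.20 and -0.21. No array of a treated group overlapped with its control. As processed signal, probe 1 went from 305 and 394 units with EGFP to 3107 and 3368 units with Srf.

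The difference at probe 1 was 3.26 for Srf (SE 0.14, 9.59-fold, limma, adjusted p = 1.43e-05). For Mkl1 it was 1.23 (SE 0.14, 2.34-fold, limma, adjusted p = 0.00156). With the hairpins it was 1.70 for shActb_1 (SE 0.14, 3.25-fold, limma, adjusted p = 0.000632) and 2.31 for shActb_2 (SE 0.14, 4.96-fold, limma, adjusted p = 7.85e-05). Probe 2 gave the same order of groups. Its EGFP arrays read -1.46 and -1.07, the arrays labelled Mkl1 0.30 and 0.18, and those labelled Srf 2.16 and 2.31. Its shEGFP arrays read -2.34 and -2.40, those of shActb_1 -0.18 and -0.33, and those of shActb_2 0.25 and 0.22. The differences at probe 2 were 3.50 for Srf, 1.50 for Mkl1, 2.12 for shActb_1 and 2.60 for shActb_2, each with SE 0.13 and an adjusted p of 0.000542 or less in limma. Both probes thus rose in each comparison, and each difference was larger at probe 2. When only the 4 arrays of the Mkl1 comparison were fitted, its adjusted p was 0.0713 at probe 1 and 0.0668 at probe 2, with the same differences.

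The 6 groups lay in 1 order at both Tnnt3 probes, from shEGFP through EGFP, shActb_1 and then shActb_2 and Mkl1, which were nearest to each other, up to Srf. The level with Mkl1 minus that with Srf was -2.03 at probe 1 (limma, adjusted p = 7.09e-05) and -2.00 at probe 2 (limma, adjusted p = 5.51e-05). The hairpins were closer together, with shActb_2 above shActb_1 by 0.61 at probe 1 (limma, adjusted p = 0.0149) and by 0.49 at probe 2 (limma, adjusted p = 0.0247). Neither of these was stable, since probe 1 did not pass without shActb_1 replicate 2 or either shActb_2 array (adjusted p from 0.059 to 0.091) and probe 2 did not pass with any 1 of the 4 arrays left out (adjusted p from 0.0707 to 0.128) or with no filter (adjusted p = 0.0576). Groups of different experiments were not tested against each other. The shActb_2 arrays were alone on their slide, so slide and hairpin cannot be told apart there.

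Tnnt2, the T subunit of the heart, was well above background on all 12 arrays. Its levels were 2.16 and 2.20 with EGFP, 2.53 and 2.31 with Mkl1, and 2.97 and 3.02 on the arrays labelled Srf, so the Srf arrays lay above all others. With shEGFP they were 2.03 and 1.99, with shActb_1 2.42 and 2.36, and with shActb_2 1.96 and 1.79. Tnnt2 rose by 0.81 with Srf, less than 2-fold (SE 0.09, limma, adjusted p = 0.000654). The difference for Mkl1 was 0.24 (SE 0.09, limma, adjusted p = 0.0997). The hairpins differed at this gene. It was 0.38 higher with shActb_1 (limma, adjusted p = 0.0383), a call lost with any 1 of the 4 arrays left out (adjusted p of 0.134 to 0.196), with quantile normalization, with no filter or with the compared arrays only (adjusted p of 0.0704 to 0.105), and at -0.13 with shActb_2, which did not pass (adjusted p = 0.268). The direct difference between the hairpins, shActb_2 minus shActb_1, was -0.52 (limma, adjusted p = 0.00507).

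Tnnt1, the slow skeletal T subunit, did not rise at either probe. At probe 1, whose levels lay between -5.15 and -4.04, 2 of 12 arrays (1 labelled Srf and 1 of shActb_2) were not well above background, and no comparison passed. Probe 2 read -1.32 and -1.41 with EGFP, -1.65 and -1.69 with Mkl1, and -1.84 and -2.15 with Srf. It fell by 0.63 with Srf (SE 0.12, limma, adjusted p = 0.00853), a difference of less than 2-fold that did not pass without Srf replicate 2 (adjusted p = 0.0516) or when only the 4 compared arrays were fitted (adjusted p = 0.0958). Probe 1 was at -0.41 in that comparison and did not pass (limma, adjusted p = 0.16).

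Tnnc1 encodes the calcium-binding subunit of slow and cardiac muscle. Its arrays read -2.51 and -2.40 with EGFP and -2.42 and -2.49 with Mkl1, so these groups overlapped, while the arrays labelled Srf read -0.20 and -0.40. With shEGFP the levels were -2.89 and -2.97, with shActb_1 -3.26 and -2.79, and with shActb_2 -2.61 and -2.85. Both shActb_2 arrays lay above both shEGFP arrays, and the shActb_1 arrays lay on either side of them. Tnnc1 rose by 2.15 with Srf (SE 0.16, 4.45-fold, limma, adjusted p = 0.000117). With Mkl1 the ratio to EGFP was 0.999-fold, with an SE of 0.16 on the log2 scale (limma, adjusted p = 0.997), and Mkl1 minus Srf was -2.16 (limma, adjusted p = 9.67e-05). The hairpins gave -0.10 and 0.20 (limma, adjusted p = 0.832 and 0.351).

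Tnnc2, the fast skeletal calcium-binding subunit, stayed between -2.75 and -2.13 on all 12 arrays. Its differences from control ran from -0.19 with Srf to 0.14 with shActb_1, none of which passed (adjusted p from 0.454 to 0.817).

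The sequence before the transcription start is shown for a troponin that was changed on the arrays labelled Srf (Tnnc1), for one that rose by less than 2-fold there (Tnnt2), and for Myl9, the regulatory myosin light chain of smooth muscle, which was changed with Mkl1 and both hairpins. Each window holds 300 bases, 250 before and 50 after the start, from RefSeq on GRCm38.p6. Capitals mark the CArG box, the CArG box with 1 mismatch, and the MCAT motif (CATTCC on either strand), a site of the Tead factors. The windows are chr14:31208062-31208361 for Tnnc1, chr1:135836084-135836383 for Tnnt2 and chr2:156775214-156775513 for Myl9, all on the + strand.
Tnnc1: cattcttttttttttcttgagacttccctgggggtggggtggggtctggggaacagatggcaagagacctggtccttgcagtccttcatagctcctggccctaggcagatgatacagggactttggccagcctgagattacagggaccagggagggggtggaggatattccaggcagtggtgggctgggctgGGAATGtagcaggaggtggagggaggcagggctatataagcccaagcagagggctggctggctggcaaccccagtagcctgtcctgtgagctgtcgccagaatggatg
Tnnt2: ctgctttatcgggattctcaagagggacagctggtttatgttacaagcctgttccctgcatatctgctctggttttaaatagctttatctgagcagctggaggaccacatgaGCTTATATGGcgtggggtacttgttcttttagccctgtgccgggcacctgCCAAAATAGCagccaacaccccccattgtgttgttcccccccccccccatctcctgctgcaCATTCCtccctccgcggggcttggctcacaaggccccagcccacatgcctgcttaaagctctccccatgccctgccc
Myl9: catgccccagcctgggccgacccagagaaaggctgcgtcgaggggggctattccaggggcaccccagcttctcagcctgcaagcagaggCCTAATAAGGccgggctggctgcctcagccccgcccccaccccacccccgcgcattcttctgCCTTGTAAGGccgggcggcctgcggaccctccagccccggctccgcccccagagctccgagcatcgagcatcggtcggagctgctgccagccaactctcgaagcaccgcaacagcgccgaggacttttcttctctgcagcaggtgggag

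In the Tnnc1 window the capitals mark 1 MCAT motif, read on the other strand, and no CArG box. In the Tnnt2 window they mark 2 CArG boxes with 1 mismatch, which begin at positions -138 and -88 from the start, and 1 MCAT motif at -27. The Myl9 window holds 1 CArG box at -161 and 1 with a mismatch at -99. Myl9 is not typical of the smooth muscle genes compared here, since the Acta2 window held 0 CArG boxes and 2 with 1 mismatch and the Cnn1 window held neither (Tagln is not in the table). Over the 8 windows of the 6 troponin genes in the table (Tnnt1, Tnnt2, Tnni1, Tnni3, Tnnc1 and Tnnc2; Tnnt3 and Tnni2 are not in it), 0 held a CArG box, against 1.63% of all 32851 windows. A CArG box with 1 mismatch was in 2 of the 8 (19.9% of all windows), those of Tnnt2 and Tnnc2. The MCAT motif was in 2 of the 8 (14.7% of all windows) and the E-box (CANNTG, its own reverse complement), a site of the myogenic factors, in 8 of 8 (72.3%). The MEF2 site was in 0 of the 8 (3.19%). These are matches of letters, and sequence outside the windows was not searched.

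Tnni2, the fast skeletal inhibitory subunit, shared the direction of Tnnt3 on the arrays labelled Srf. It read -2.27 and -2.40 with EGFP, -2.13 and -2.38 with Mkl1, and -0.83 and -0.81 with Srf. Its shEGFP arrays read -2.64 and -2.54, those of shActb_1 -1.90 and -1.99, and those of shActb_2 -2.23 and -2.32, so both hairpins lay above their control. Tnni2 rose by 1.51 with Srf (SE 0.10, 2.85-fold, limma, adjusted p = 6.04e-05). It rose by 0.65 with shActb_1 (limma, adjusted p = 0.00675) and by 0.32 with shActb_2 (limma, adjusted p = 0.0326), both under 2-fold. The shActb_1 call did not pass without shEGFP replicate 1 or shActb_1 replicate 1 (adjusted p = 0.0592 and 0.0579), and the shActb_2 call did not pass without any 1 of its 4 arrays (adjusted p from 0.0667 to 0.166) or with no filter (adjusted p = 0.0753). The difference for Mkl1 was 0.08 (SE 0.10, limma, adjusted p = 0.57), and Mkl1 minus Srf was -1.43 (limma, adjusted p = 6.17e-05).

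Tnni3, the inhibitory subunit of the heart, went the other way. It read -2.14 and -2.39 with EGFP, -2.81 and -2.89 with Mkl1, and -2.85 and -3.06 with Srf, with no overlap between EGFP and either. It fell by 0.69 with Srf and fell by 0.58 with Mkl1 (limma, adjusted p = 0.0148 and 0.0331), both under 2-fold. Without EGFP replicate 1 neither passed (adjusted p = 0.0721 and 0.143), nor did the Srf call without Srf replicate 2 (adjusted p = 0.101) or the Mkl1 call without Mkl1 replicate 1 or 2 (adjusted p = 0.0935 and 0.169). With only the compared arrays fitted, neither passed (adjusted p = 0.0834 and 0.119), and the Mkl1 call did not pass with no filter either (adjusted p = 0.0716). With the hairpins Tnni3 was at -0.18 and -0.12 from shEGFP and did not pass (limma, adjusted p = 0.579 and 0.557). Tnni1, the slow skeletal form, passed in none of the 4 comparisons. Its differences were 0.06 with Srf, -0.68 with Mkl1, 0.17 with shActb_1 and -0.33 with shActb_2, with adjusted p from 0.0828 to 0.88.

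**Figure D2:**
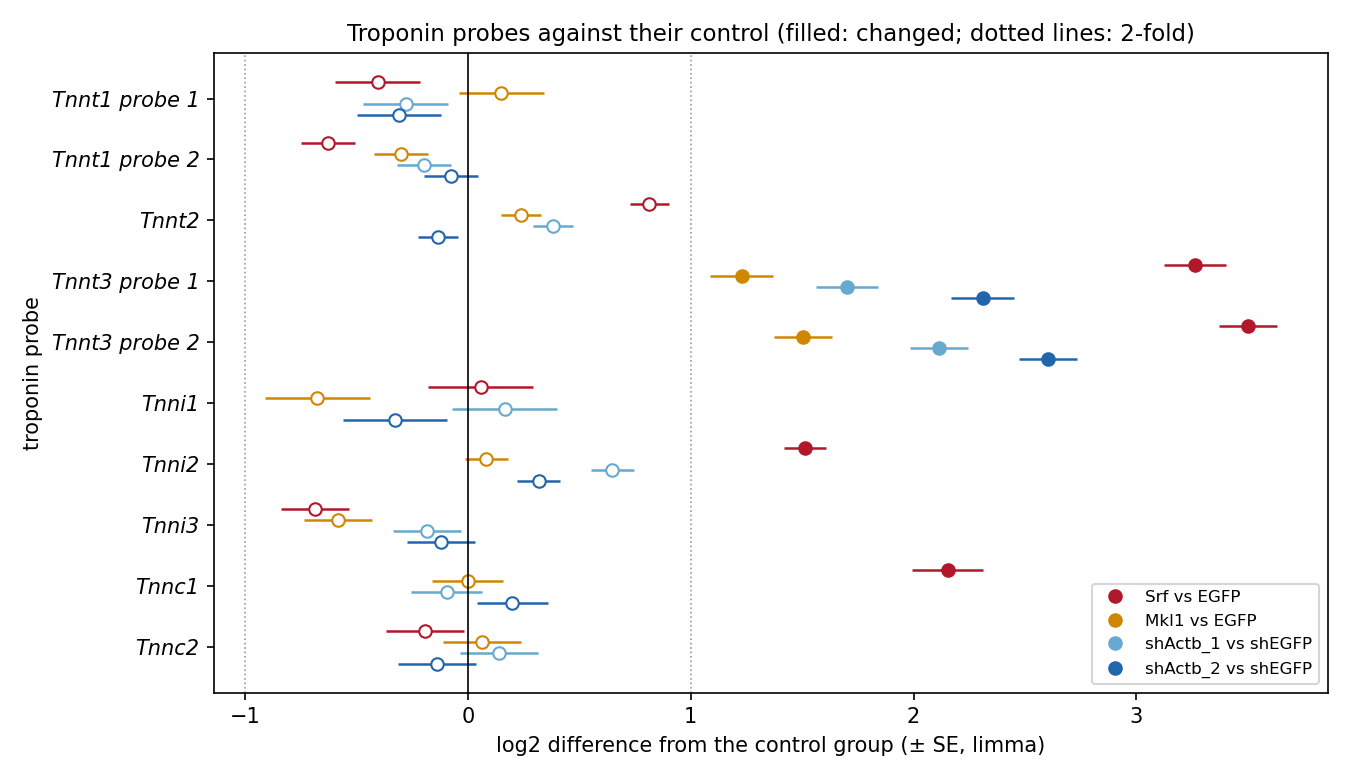
Log2 difference from the control group of each of the 10 troponin probes in 4 comparisons, with the standard error from limma as the bar; filled points are changed (adjusted p under 0.05 and over 2-fold) and dotted lines mark 2-fold. The filled points are the 2 Tnnt3 probes in all 4 comparisons and Tnni2 and Tnnc1 for Srf, from 1.23 to 3.50.

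The troponins of one fibre type were not all changed together. Of the fast skeletal genes, Tnnt3 and Tnni2 were changed on the arrays labelled Srf (3.26 and 3.50 at the Tnnt3 probes, 1.51 for Tnni2), while Tnnc2 was at -0.19. Of the cardiac genes, Tnnc1 was changed (2.15), Tnnt2 rose by less than 2-fold (0.81) and Tnni3 fell by 0.69. The slow skeletal genes Tnnt1 and Tnni1 were not changed, while Tnnc1, which serves slow muscle as well, was. By subunit, 1 gene each of the T, I and C families was changed with Srf. With Mkl1 and with each hairpin, Tnnt3 was the only troponin gene changed.

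The T and I genes lie in pairs in the mouse genome. Tnnt1 and Tnni3 are next to each other, Tnni1 and Tnnt2 have 1 gene between them, and Tnni2 and Tnnt3 have 2. The members of the fast skeletal pair, Tnni2 and Tnnt3, were both changed on the arrays labelled Srf. Lsp1, which lies between them and encodes an actin-binding protein of leukocytes, was 0.28 higher there (limma, adjusted p = 0.0432), 0.43 higher with Mkl1 (limma, adjusted p = 0.0108), 0.81 higher with shActb_1 (limma, adjusted p = 0.00147) and 0.60 higher with shActb_2 (limma, adjusted p = 0.00142), all under 2-fold. The genes on the outer sides of this pair did not pass with Srf (Syt8 at -0.42, limma, adjusted p = 0.594; Mrpl23 at 0.09, limma, adjusted p = 0.254). Dnaaf3, beside Tnni3, fell by 0.54 with Srf and fell by 0.62 with Mkl1 (limma, adjusted p = 0.0349 and 0.0266), where Tnni3 fell as well. Lad1, which lies between Tnni1 and Tnnt2 and encodes a protein of the basement membrane zone, fell by 0.81 with Srf (limma, adjusted p = 0.00331), where Tnnt2 rose. Phlda3, Pkp1 and Ppp1r12c, on the outer sides of the other pairs, did not pass with Srf (-0.13, -0.25 and 0.07, limma, adjusted p from 0.139 to 0.571). With Mkl1, Phlda3 was 0.49 and Ppp1r12c 0.34 higher (limma, adjusted p = 0.00181 and 0.0262). With shActb_2, Phlda3 was 0.31, Pkp1 0.62 and Mrpl23 0.26 higher (limma, adjusted p = 0.00559, 0.00418 and 0.00968). No value is given for Prr33, which lies between Lsp1 and Tnnt3, since its probe entered no test. These neighbours were chosen after the troponin values were known.

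The smooth muscle contractile genes were read on the same arrays. The list of smooth muscle contractile genes holds 12 genes, of which 10 or 11 were tested in a comparison. With Srf 6 of 11 rose by over 2-fold and 1 did the opposite (Synpo2, an actin-bundling protein named after its values were seen, which fell by 1.42), with Mkl1 8 of 11 were higher, with shActb_1 5 of 10, and with shActb_2 8 of 11. Counted as genes, with 1 probe each, the troponins had 3 of 8 higher with Srf and 1 of 8 with Mkl1, shActb_1 and shActb_2. The gap for Srf depends on the background correction, since under normexp 4 of 11 smooth muscle genes were higher there (5 of 11 changed). The troponin count under normexp was made by probe, with Tnnt3 counted at both of its probes, and stayed at 4 of 10. Over all genes tested, the share called higher was 4.4%, 1.88%, 0.746% and 2.4% in that order, and the share called lower was 2.61%, 1.96%, 1.65% and 3.36%. The median difference of the smooth muscle list was 1.14, 2.32, 1.52 and 2.19, or 1.06, 2.32, 1.52 and 1.96 with Myh11, smooth muscle myosin heavy chain, set at its lower bound where its control was not well above background. That of the 8 troponin genes was 0.44, 0.03, 0.15 and -0.10, and that of all genes was -0.01, 0.02, 0.02 and 0.07.

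The order of Srf and Mkl1 was opposite for the changed troponins and for Acta2, Cnn1 and Myl9 among the smooth muscle genes. Acta2 (smooth muscle α-actin) rose by 3.37 with Srf and by 6.93 with Mkl1, and Mkl1 lay 3.55 above Srf (limma, adjusted p = 8.15e-07). Cnn1 (calponin) rose by 1.14 and 6.56, and Mkl1 lay 5.42 above Srf (limma, adjusted p = 1.14e-07). Myl9 rose by 3.60 with Mkl1 and was 0.26 higher with Srf, which did not pass (limma, adjusted p = 0.0559), and Mkl1 lay 3.34 above Srf (limma, adjusted p = 1.02e-06). Actg2 (the γ-actin of enteric smooth muscle) rose by 4.60 with Srf and 5.41 with Mkl1, and by 2.76 and 5.29 with shActb_1 and shActb_2 (limma, adjusted p of 4.03e-05 or less), and Mkl1 lay 0.81 above Srf, under 2-fold (limma, adjusted p = 0.00188). Tagln (transgelin) rose by 2.34 and 2.32, and its levels with Srf and Mkl1 differed by -0.03 (SE 0.22, limma, adjusted p = 0.953). Of the whole smooth muscle list, 6 of 11 were higher with Mkl1 than with Srf and 1 was lower, Mylk (myosin light chain kinase), at -1.17 (limma, adjusted p = 0.00197). The striated actins did not share the order of the changed troponins, since Acta1 was 3.64 and Actc1 1.67 higher with Mkl1 than with Srf (limma, adjusted p = 3.46e-06 and 0.00282). Other striated muscle genes did share it. Of the thick filament genes, 3 of 14 were changed to lower with Mkl1 against Srf and 0 to higher. Of the thin filament genes apart from troponin, 1 of 11 was lower and 2 were higher. Among the troponins, 4 of 10 probes (Tnnt3 at both, Tnni2 and Tnnc1) were changed between Mkl1 and Srf, all lower with Mkl1, where 5% of all probes were changed in either direction.

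Between the hairpins the order was shared in part. With shActb_2 above shActb_1, Acta2 differed by 0.63, Cnn1 by 0.53 and Myl9 by 1.21 (limma, adjusted p = 0.00169, 0.00185 and 0.000202), and both Tnnt3 probes were higher with shActb_2 as well. Tnnt2 and Tnni2 were lower with shActb_2, at -0.52 and -0.33 (limma, adjusted p = 0.00507 and 0.0341), and Tnni2 did not pass there with any 1 of the 4 arrays left out (adjusted p from 0.0728 to 0.182) or with normexp, quantile normalization or no filter (adjusted p from 0.0837 to 0.106). No troponin probe differed by over 2-fold between the hairpins (0 of 10 changed), where 5.03% of all probes were changed in either direction. By an adjusted p under 0.05 in limma alone 4 passed, a threshold for which no share over all probes is given. The Srf and Mkl1 comparisons share the EGFP arrays, and the hairpin comparisons share the shEGFP arrays.

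**Figure D3:**
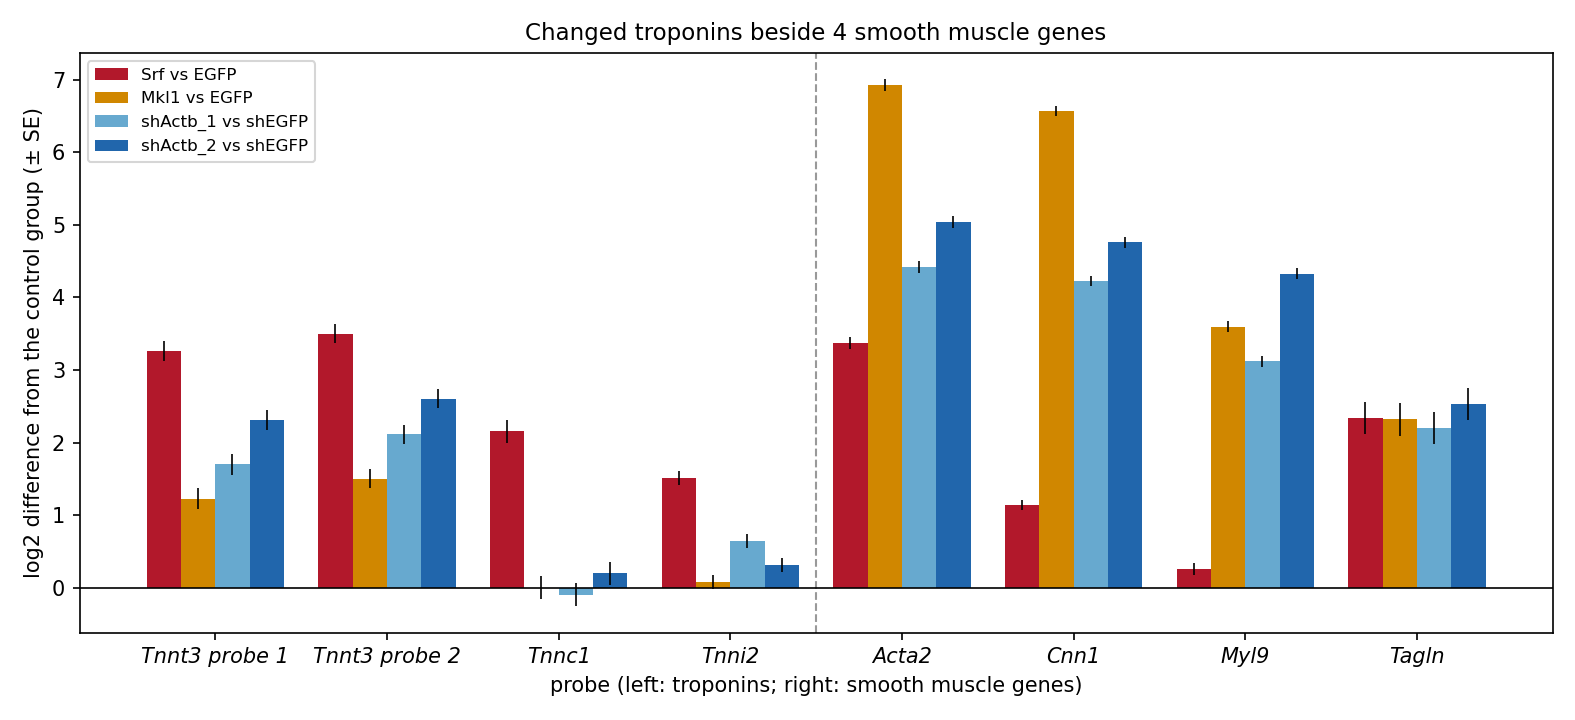
Log2 difference from the control group (bars from 0, with the standard error from limma) of the changed troponin probes, left of the dashed line, and of 4 smooth muscle genes, right of it, in 4 comparisons. Tnnt3, Tnnc1 and Tnni2 have their tallest bar for Srf, while Acta2 and Cnn1 have it for Mkl1 (6.93 and 6.56) and Myl9 for shActb_2 (4.33).

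Other parts of the striated muscle apparatus are given beside the shares over all genes (higher 4.4%, 1.88%, 0.746% and 2.4%, lower 2.61%, 1.96%, 1.65% and 3.36%, for Srf, Mkl1, shActb_1 and shActb_2). Of the striated thin filament genes apart from troponin (14 genes, 9 to 11 tested), 3 of 11 were changed to higher with Srf, 3 of 10 with Mkl1, 2 of 10 with shActb_1 and 2 of 9 with shActb_2, and 1 of 9 was lower with shActb_2. Acta1, skeletal α-actin, was higher in each comparison, by 1.099, 4.74, 4.05 and 4.16 in that order (limma, adjusted p of 0.000647 or less). Actc1, cardiac α-actin, was not well above background in EGFP and shEGFP, and so was at least 2.63-fold higher with Srf, at least 8.35-fold with Mkl1, at least 1.33-fold with shActb_1 and at least 8.72-fold with shActb_2 (limma, adjusted p from 5.17e-05 to 0.00314). These bounds set the mean of the brighter group against the lowest signal that counted as well above background on the dim arrays, so for shActb_1 a change of over 2-fold is not shown. The actins are close in sequence, so part of one gene's signal can come from another. The third gene was Tmod1 (tropomodulin, which caps the pointed end) with Srf, at least 2.01-fold higher, and Xirp1 (an actin-binding repeat protein) with Mkl1, 1.02 higher (limma, adjusted p = 0.0366). Tmod4, a skeletal muscle tropomodulin, fell by 1.38 with shActb_2.

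The thick filament list (22 genes of myosin, its binding proteins and the M-band, 10 to 14 tested) had 2 of 14 higher with Srf, 0 of 13 higher and 1 lower with Mkl1, 1 of 10 higher with shActb_1 and 0 of 10 in either direction with shActb_2, where 2.4% and 3.36% of all genes were called higher and lower. Mybpc3, cardiac myosin-binding protein C, and Myom1, myomesin of the M-band, were both changed to higher with Srf (limma, adjusted p = 0.00799 and 0.00277). Each was well above background on both Srf arrays and on 1 of the 2 EGFP arrays, so the size is uncertain and is not given. Myl1, a fast skeletal light chain, fell by 1.22 with Mkl1. Mkl1 minus Srf was -1.28 for Myl1, and Mybpc3 and Myom1 were lower with Mkl1 than with Srf as well (limma, adjusted p = 0.00903, 0.00247 and 0.00593). Mybph, a myosin-binding protein, was 1.09 higher with shActb_1 and 0.91 higher with shActb_2, the latter under 2-fold (limma, adjusted p = 0.00559 and 0.00324). Between the hairpins it did not pass (-0.18, limma, adjusted p = 0.4).

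The Z-disc list (13 genes) had 3 of 10 higher with Srf, 3 of 10 with Mkl1, 2 of 9 with shActb_1, where 2 of 9 were lower, and 2 of 11 with shActb_2, where 1 of 11 was lower. Csrp3, a muscle LIM protein, is among the lower ones with both hairpins. It was not well above background there and was at least 1.46-fold and at least 1.52-fold higher in shEGFP than with shActb_1 and shActb_2 (limma, adjusted p = 0.0231 and 0.0204), so a change of over 2-fold is not shown. Actn3, the fast-fibre α-actinin, was 2.32 higher with Srf (limma, adjusted p = 7.84e-05). Ankrd1, a stress-responsive ankyrin repeat protein, was higher in all 4 comparisons, by 1.19 with Srf, 2.18 with Mkl1, 1.64 with shActb_1 and 1.79 with shActb_2. Fhl2, a LIM protein, was higher with Mkl1 (1.86), shActb_1 (1.11) and shActb_2 (1.38), each with an adjusted p of 9.7e-05 or less in limma, and was at -0.75 with Srf, under 2-fold (limma, adjusted p = 0.000122). Pdlim3, a PDZ and LIM protein that binds α-actinin, was higher with Srf (1.23) and Mkl1 (1.93) and was at -1.05 with shActb_1 (limma, adjusted p from 0.0005 to 0.00759). Between Mkl1 and Srf, Fhl2 was 2.61 higher with Mkl1, while Actn3 (-1.97) and Actn2, the α-actinin of heart and slow fibres (-1.14), were lower (limma, adjusted p of 0.0379 or less). The calcium handling list (15 genes, 8 or 9 tested) had 1 of 9 higher with Srf, 1 of 8 higher and 1 lower with Mkl1 and with shActb_1, and 2 of 8 higher with shActb_2, among them Casq2, the calsequestrin of the heart, by 1.48 (limma, adjusted p = 0.000128). Cacna1c, a subunit of the L-type calcium channel, was 1.36 higher with Srf (limma, adjusted p = 0.00643). It was the lower gene with Mkl1 and shActb_1, where it was not well above background, and was at least 2.81-fold and at least 3.23-fold higher in their controls (limma, adjusted p = 0.000375 and 0.00352). Ryr1, the calcium release channel of skeletal muscle, was the higher gene with Mkl1 (at least 2.12-fold, limma, adjusted p = 0.00369) and with shActb_1, and the other one with shActb_2 (limma, adjusted p = 0.0124 and 0.00272), where 1 of the 2 shEGFP arrays read it well above background.

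Among the muscle regulators (23 transcription factors and cofactors, 16 to 18 tested), 3 of 16 rose and 1 fell by over 2-fold with Srf, 2 of 16 rose and 1 fell with Mkl1, 0 of 17 did either with shActb_1, and 1 of 18 rose and 0 fell with shActb_2. The shares over all genes are those given for the sarcomere lists. The gene lower with Srf was Srf itself, at -1.40 (limma, adjusted p = 0.000266), and Srf was 1.18 higher with Mkl1 (limma, adjusted p = 0.00121). At its other probe Srf was 0.71 higher with Mkl1, under 2-fold (limma, adjusted p = 0.000521). Both Srf probes were also higher by under 2-fold with shActb_1 (0.90 and 0.60) and shActb_2 (0.97 and 0.75) (limma, adjusted p from 8.66e-05 to 0.0267). Nkx2-5, a cardiac homeobox factor, was 3.63 higher with Srf, 2.55 with Mkl1 and 1.54 with shActb_2 (limma, adjusted p = 6.96e-06, 4.98e-05 and 0.000179). Hand2, a cardiac basic helix-loop-helix factor, was 1.47 higher with Srf. Mef2c, a muscle and neuronal factor, fell by 1.02 with Mkl1.

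Defining markers of muscle and other cell types were read for the same arrays. Of 9 skeletal muscle markers, 3 or 4 were well above background on both arrays of a group, and Myog, Myf5, Ckm and Myh3 were not in any group. The summed level of these markers, in multiples of the 75th percentile signal, was 0.59 on both EGFP arrays, 2.54 and 2.56 with Mkl1, and 0.569 and 0.588 on the arrays labelled Srf. It was 0.449 and 0.497 with shEGFP, 1.98 and 2.12 with shActb_1, and 2.25 and 2.36 with shActb_2. Acta1 was the only marker of this list changed in any of the 4 comparisons, and it was changed in each. Mylpf, a fast skeletal light chain, was at -0.64 with Srf and 0.68 with shActb_2 (limma, adjusted p = 0.00944 and 0.00475), and Des (desmin) was at 0.05 with Srf (limma, adjusted p = 0.717) and 0.81 higher with shActb_2 (limma, adjusted p = 0.000619). Of 8 cardiac markers, 5 or 6 were well above background on both arrays of a group, and Tbx5 was not in any group. Their sum was 0.924 and 1.16 with EGFP, 1.75 and 1.85 with Mkl1, and 2.32 and 2.41 with Srf. It ran from 1.05 to 1.15 with shEGFP, 1.27 to 1.38 with shActb_1, and 1.62 on both shActb_2 arrays. The members did not move together, since with Srf only Nkx2-5 (3.63) and Actc1 were changed, while Gata4, a cardiac zinc finger factor, was 0.64 higher (limma, adjusted p = 0.0381) and the cardiac myosin genes Myh6, Myh7 and Myl7 did not pass (-0.42, 0.31 and -1.03, limma, adjusted p from 0.0596 to 0.184). All 6 fibroblast markers were well above background in every group, with sums of 168 and 169 with EGFP, 92.6 and 95.8 with Srf, and 99.8 and 120 with Mkl1. The fibroblast sum was 133 and 141 with shEGFP and between 80.9 and 114 with the hairpins. Not every member followed the sum: Thy1, a surface glycoprotein that neurons also carry, was changed to higher in all 4 comparisons, by 1.49, 3.09, 1.63 and 2.90. Pdgfrb, a PDGF receptor, was at -1.69, -1.87 and -1.75 with Mkl1, shActb_1 and shActb_2, and Col1a2, a collagen chain, at -1.096 with Srf. These are all 8 changes in this list, each with an adjusted p of 0.000862 or less in limma.

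Neuron markers moved in the same comparisons. Of 5 neuron markers, 4 or 5 were well above background on both arrays of a group, and their sum ran from 7.15 to 8.31 with EGFP, 2.78 to 3.23 with Mkl1 and 2.55 to 2.71 with Srf. It ran from 6.74 to 6.90 with shEGFP and from 2.97 to 3.41 over both hairpins. Stmn2, a neuronal tubulin-binding protein, fell in all 4 comparisons, at -3.88 with Srf, -1.46 with Mkl1, -1.41 with shActb_1 and -1.29 with shActb_2. Map2, a dendritic microtubule protein, was at -1.49, -1.27 and -1.14 with Mkl1, shActb_1 and shActb_2, and at -0.87 with Srf, under 2-fold (limma, adjusted p = 0.000589). Tubb3, neuronal β-tubulin, was 1.53 higher with Srf. Of 4 astrocyte markers, Slc1a3, a glutamate transporter that neural progenitors also express, was at -1.37 with Mkl1, -1.30 with shActb_1 and -1.11 with shActb_2. Aqp4, a water channel, was at -0.86 with shActb_2, under 2-fold (limma, adjusted p = 0.0338), no other astrocyte marker passed, and S100b was not well above background in any group. The astrocyte sum ran from 3.04 to 3.78 with EGFP, 2.82 to 3.10 with Srf, 1.30 to 1.53 with Mkl1, 3.34 to 3.56 with shEGFP and 1.48 to 1.79 over the hairpins. Of 4 embryonic stem cell markers, Esrrb, an orphan nuclear receptor, was 2.53 higher with Srf, the only difference of over 2-fold that passed in this list. Below 2-fold, Esrrb was 0.78 and 0.90 higher with shActb_1 and shActb_2 (limma, adjusted p = 0.00691 and 0.00107), and Nanog, a pluripotency factor, was at -0.90, -0.78 and -0.64 with Mkl1, shActb_1 and shActb_2 (limma, adjusted p from 0.000923 to 0.00235). The sum of the 4 stem cell markers was between 2.88 and 3.34 on the arrays labelled Srf and between 0.734 and 1.09 on the other 10. Apart from Esrrb, these markers did not pass with Srf (Pou5f1 at -0.34, Zfp42 at -0.13 and Nanog at 0.12, limma, adjusted p from 0.342 to 0.82). The differences of over 2-fold given for these 3 lists had adjusted p of 0.00152 or less in limma. The part of the muscle, fibroblast, neuron, astrocyte and stem cell markers in the troponin results was not tested.

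**Figure D4:**
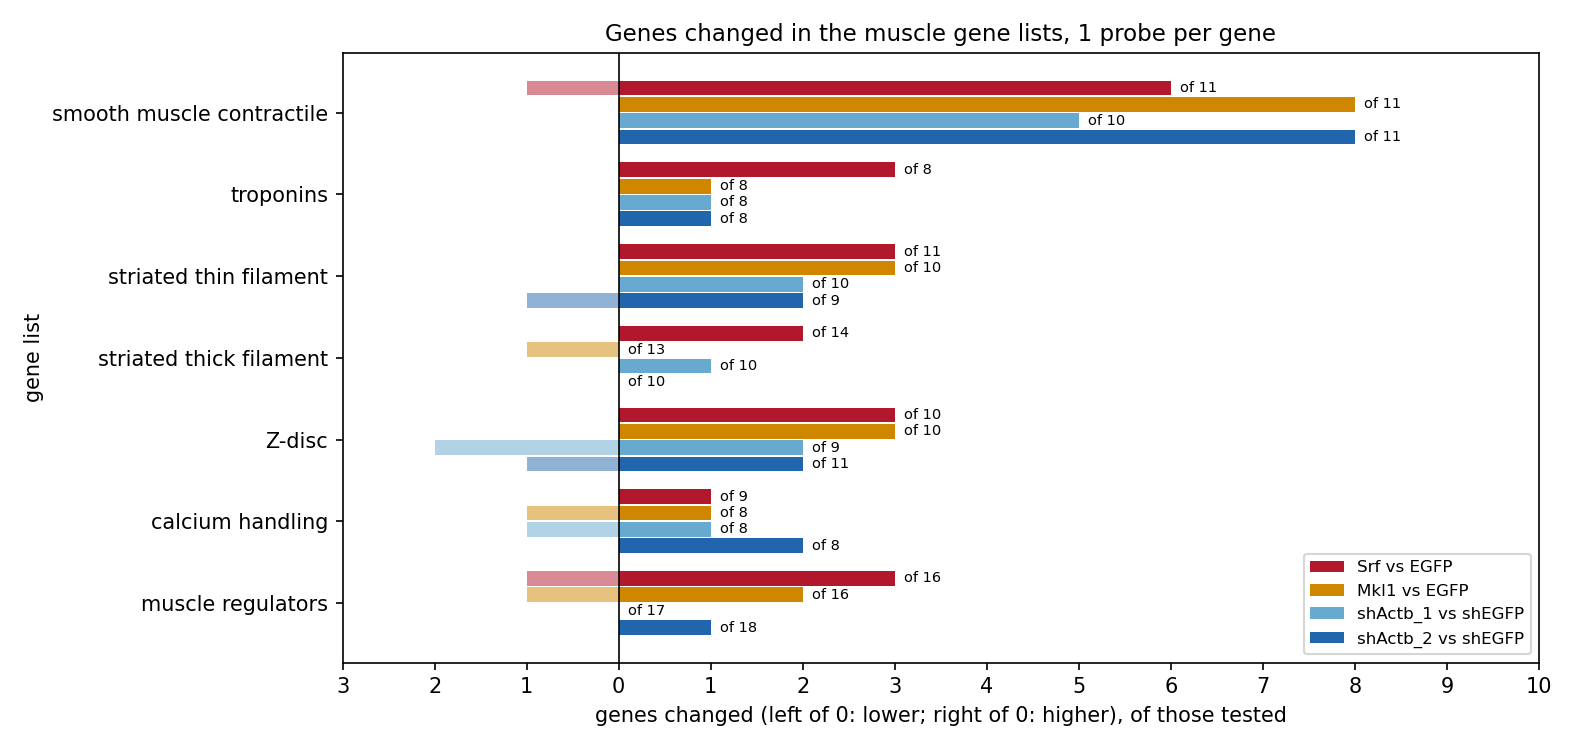
Number of genes changed to higher (right of 0) and to lower (left of 0) in 7 muscle gene lists and 4 comparisons, with 1 probe per gene and the number tested beside each bar. The smooth muscle list has 5 to 8 genes changed to higher in each comparison and the troponins have 3 with Srf and 1 in each of the others.

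The genes most like each changed troponin over the 12 arrays were found by Pearson correlation, among 2117 genes changed in at least 1 comparison, with each level taken relative to the mean of its own control. Tnnt3 probe 1 was nearest to Bpifb4 (r = 0.974), Uchl1, Slc11a1, Sgk2 and Edn1. Probe 2 was nearest to Lamc3 (r = 0.968), Sgk2, Sfmbt2, Slc11a1 and Bpifb4. For Tnni2 they were Gprc5c (r = 0.979), 2310068J16Rik, Esrrb, Slc6a4 and Cd74, and for Tnnc1 they were Trf (r = 0.995), Usp51, Sbno2, Nkx6-1 and Gm11627. No gene of the smooth muscle list and no other sarcomere gene was among these. Only the nearest few of the 2117 genes were listed for each probe, and the share of muscle genes among the 2117 is not given. The absence of muscle genes from such short lists therefore cannot show whether the changed troponins followed muscle genes. These correlations are a description, since the 12 points are 6 groups of array duplicates and share their controls.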

How the data were processed

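Each of the 12 samples was hybridized to 1 one-colour Agilent array. Per the file headers, Feature Extraction 11.5.1.1 gave a processed signal intensity per spot, after background subtraction, and the authors deposited these intensities with no scaling across arrays. A deposited table of log2 values is offset from them by a constant per array. From the intensities, log2 was taken, control and outlier-flagged spots were dropped, a probe's spots were averaged, and each array's 75th percentile (843 to 1150 signal units) was subtracted. Accessions without versions were matched to RefSeq (GRCm38.p6, for names only), which named 28026 of 55681 probes (50.3%). No spot was saturated.

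All 12 arrays were fitted in limma 3.58.1 (R 4.3.3) with 1 mean per group, and the fit was tested on simulated data. A probe entered a comparison if both arrays of either group read it well above background, with Benjamini-Hochberg adjustment over all such probes (two-sided). EGFP, Mkl1 and Srf shared slide 1, shEGFP and shActb_1 were on slide 2 and shActb_2 was on slide 3, so a slide block leaves the Srf, Mkl1 and shActb_1 comparisons as they are. Row could not be blocked: both EGFP arrays were in row 2 and the Mkl1 and Srf arrays in row 1, both shEGFP and shActb_1 pairs were in row 1, and shActb_2 was in row 2, so row cannot be told apart from treatment in the Srf, Mkl1 and shActb_2 comparisons. For gene lists, 1 probe per gene was used.

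The 8 troponins, the gene lists and the tests were chosen with earlier results of these data known. Named were all troponin probes, the targeted genes (Actb, Srf and Mkl1), 4 smooth muscle genes, up to 3 changed genes with the largest differences of a list in a comparison, and the 5 genes most like each changed troponin. One gene that this rule names is not reported here. Alternatives were normexp (offset 50, on the median spot signal), quantile normalization, the deposited table, no filter or all 12 arrays, the compared arrays only, a replicate block, a robust variance trend, averaged probes, p or fold alone, and each array left out.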

Additional observations from a re-analysis of the deposited data

Results flagged for a closer look

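The effects of Srf and Mkl1, both against EGFP, differed by the direct limma test. At over 2-fold and past the test, 4 of 10 troponin probes and 3 of 4 smooth muscle genes were changed, where 5% of all probes were. Tnnt2 passed with a difference under 2-fold. Mkl1 minus Srf was -0.58 for Tnnt2 (adjusted p = 0.00299), -2.03 and -2.00 for the Tnnt3 probes (adjusted p = 7.09e-05 and 5.51e-05), -1.43 for Tnni2 (adjusted p = 6.17e-05) and -2.16 for Tnnc1 (adjusted p = 9.67e-05). It was 3.55 for Acta2, 3.34 for Myl9 and 5.42 for Cnn1 (adjusted p = 8.15e-07, 1.02e-06 and 1.14e-07). In all of these, both arrays of one group lay on the same side of both arrays of the other.

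The effects of the hairpins against shEGFP differed as well. In limma, shActb_2 minus shActb_1 was -0.52 for Tnnt2 (adjusted p = 0.00507), 0.61 and 0.49 for the Tnnt3 probes (adjusted p = 0.0149 and 0.0247) and -0.33 for Tnni2 (adjusted p = 0.0341). With 1 of the 4 arrays left out, the Tnnt3 probe 1 difference did not pass in 3 of 4 cases (adjusted p from 0.059 to 0.091), and those of Tnnt3 probe 2 and Tnni2 did not pass in any of the 4 (adjusted p from 0.0707 to 0.182). It was 0.63 for Acta2, 1.21 for Myl9 and 0.53 for Cnn1 (adjusted p = 0.00169, 0.000202 and 0.00185). The slide differs between these groups too, and its part cannot be told apart from that of the hairpin.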

How the results depend on the processing

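Every changed troponin probe kept its direction and an adjusted p under 0.05 in limma in all of its alternatives (52 of 52 for Srf, 26 of 26 for each hairpin, 52 of 52 for Mkl1 against Srf), except Tnnt3 with Mkl1, which passed in 24 of 26 and missed at both probes when only the 4 compared arrays were fitted, leaving 0 troponin probes changed there. Leaving out any 1 array changed no count of changed troponin probes (4, 2, 2, 2, 4 and 0). A lone array is then assumed to vary like the other groups. With probes of a gene averaged, 1 troponin gene of 8 was changed with Mkl1 and with each hairpin, since the 2 Tnnt3 probes become 1 value. With the adjusted p alone as the threshold, 7 troponin probes passed with Srf (5 higher and 2 lower), 4 with shActb_1 (4 higher) and 4 between the hairpins (2 higher and 2 lower). The share of all probes passing at that threshold is not given, so these counts cannot be set against it. Smooth muscle genes changed with Mkl1 fell from 8 to 5 with the compared arrays only. Striated sarcomere genes (thin and thick filament and Z-disc) changed with Srf went from 8 to 5 under normexp and to 4 under the filter on all 12 arrays. Those with Mkl1 went from 7 to 4 with the compared arrays only and to 11 by the adjusted p alone (8 higher and 3 lower). Those with shActb_1 went from 7 to 3 under normexp. Those with shActb_2 went from 6 to 17 by the adjusted p alone (10 higher and 7 lower). No share of all genes is given at the adjusted p alone, so the counts there cannot be set against it. The cause of these shifts was not tested. With an array left out, these sarcomere counts were 8 for Srf, 5 to 7 for Mkl1, and 5 to 6 for each hairpin.

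Over the 60 single troponin differences and 774 alternatives, 684 kept direction and side of the threshold, 41 no longer passed, 19 newly passed and 30 changed sign. The sign changes were all in differences near 0, with none beyond 0.142 and no adjusted p under 0.509. Quantile normalization gave 0.0605 for Tnnt1 probe 1 between the hairpins, 0.071, 0.065 and 0.016 for Tnnt1 probe 2, Tnni3 and Tnnc2 with shActb_2, and 0.12 for Tnnc1 with Mkl1. Averaged probes gave -0.074 for Tnnt1 with Mkl1 and 0.045 between the hairpins, the deposited values gave 0.00275 for Tnnc1 with Mkl1, and normexp -0.038 for Tnnc2 with Mkl1. With an array left out, the ranges of those that changed sign were -0.12 to 0.42 for Tnnt1 probe 1, -0.041 to 0.21 for Tnni2, -0.055 to 0.053 for Tnnc1 and -0.0069 to 0.13 for Tnnc2 with Mkl1, and -0.036 to 0.15 for Tnni1 with Srf. With shActb_1 they were -0.015 to 0.35 for Tnni1, -0.33 to 0.14 for Tnnc1 and -0.068 to 0.35 for Tnnc2. With shActb_2 they were -0.21 to 0.063 for Tnnt1 probe 2, -0.70 to 0.0495 for Tnni1, -0.33 to 0.084 for Tnni3 and -0.34 to 0.069 for Tnnc2. Between the hairpins they were -0.20 to 0.14 for Tnnt1 probe 1, -0.018 to 0.26 for Tnnt1 probe 2 and -0.14 to 0.27 for Tnni3, and between Mkl1 and Srf -0.0034 to 0.21 for Tnni3.

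The groups share replicate numbers, but the deviations of same-numbered arrays correlated at only -0.0022 to 0.26 over 29232 probes and the labels do not tie the numbers to a shared culture or day, so the numbers were not taken as pairs. With the replicate block, the troponin counts were 4, 2, 2 and 2 against the controls, the same as without it, and no other troponin call changed; the number of all probes changed with Srf went from 1968 to 2036. Tnnt1 probe 1, at 28 to 51 signal units, was the only troponin probe not well above background on every array, which limits what it can show.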
